A study of Rattus norvegicus with 11 samples.

Results

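The genes described are Bmal1, Clock, Npas2, Nr1d1, Nr1d2 and Rora, the core transcriptional loop of the circadian clock, in liver RNA of 11 Wistar rats. They were chosen from the clock genes with earlier results of this comparison in view, so their differences between the groups are a description. Their probe sets were then found by symbol: of 20832 probe sets with 1 gene symbol in the platform annotation, 12 belonged to these 6 genes, and the probe set brightest over all 11 arrays stood for its gene. All 6 genes passed the filter on low signal and were among the 10714 genes tested. Mequindox is a veterinary antibacterial of the quinoxaline class. Of the animals, 3 were controls (numbers 1, 2 and 9) and 8 were high-dosed with mequindox (numbers 2, 3, 4, 5, 6, 8, 10 and 11), and each liver had 1 Affymetrix array. All were labelled week 9 of age except high-dosed animal 8, labelled week 10. The dose by mass, the length of treatment and the time of day at which livers were taken are not stated in the labels. Per the series' design text, blood chemistry and a multivariate view of metabolite extracts from the livers guided which groups went to arrays.

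BMAL1 and CLOCK are transcription factors that bind DNA as a pair at a motif called the E-box, and NPAS2 is a paralog of CLOCK that can take its place. Among the genes that this pair activates are Nr1d1 and Nr1d2, which encode the nuclear receptors REV-ERB alpha and REV-ERB beta. The REV-ERB proteins bind the ROR response element (RORE) and repress genes that carry it, Bmal1 among them, while the ROR receptors, such as RORA, bind the same element and activate. In rodent liver the transcripts of Bmal1 and Npas2 peak at the opposite time of day from that of Nr1d1, so a difference in the level of these genes at 1 sampling time can be a difference in amplitude or in phase.

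Promoter sequences from RefSeq (build GRCr8) were found for all 6 genes, in 8 windows of 250 bases before and 50 bases after a transcript start. Bmal1 had 1 match to the RORE within its window, and 0.356% of all 33469 promoter windows hold one. A search added after this sequence had been seen, for stretches of the window that differ from that match at 1 base, found AAAGTAGGTTA, which 0.0149% of windows hold. That share counts 1 exact spelling taken from this window, so it cannot be set beside the share of the RORE. No share was computed for all stretches that differ at 1 base. The RORE match is shown because REV-ERB and ROR proteins bind this element. The related stretch is shown because it lies close by and differs at 1 base. Counted from the start of the window's transcript, which lies 106 bases inside the annotated gene, the matches run from -20 to -10 and from -56 to -46. The stretches lie on the plus strand, at chr1:176766298-176766327 and chr1:176766263-176766292. Capitals mark the match.
Bmal1, RORE: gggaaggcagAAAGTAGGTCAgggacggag
Bmal1, related element: attggtcggAAAGTAGGTTAgtggtgcgac

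Nr1d1 had the E-box CACGTG in the window of its inner start (stretch printed: chr10:84229628-84229657, minus strand), a motif found in 6.42% of windows. The window of its outermost start (250 bases before the start printed: chr10:84231813-84232062, minus strand) held the E-box variant CACGTT on the opposite strand, where the printed strand reads AACGTG, a motif in 4.83% of windows. Nr1d2 (250 bases before the start printed: chr15:9954784-9955033, plus strand) held only the nuclear receptor half-site AGGTCA, which 16.2% of windows hold and which is also the end of the RORE match in Bmal1. These stretches are shown as the upstream sequence of the genes with the largest rises among the members, with matches in capitals.
Nr1d1, inner start: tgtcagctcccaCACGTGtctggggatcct
Nr1d1, outermost start: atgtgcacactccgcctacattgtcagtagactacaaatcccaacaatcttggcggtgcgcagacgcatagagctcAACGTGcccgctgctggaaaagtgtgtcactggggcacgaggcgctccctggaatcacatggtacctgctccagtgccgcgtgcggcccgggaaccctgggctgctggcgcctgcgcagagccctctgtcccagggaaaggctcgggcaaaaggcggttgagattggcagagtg
Nr1d2: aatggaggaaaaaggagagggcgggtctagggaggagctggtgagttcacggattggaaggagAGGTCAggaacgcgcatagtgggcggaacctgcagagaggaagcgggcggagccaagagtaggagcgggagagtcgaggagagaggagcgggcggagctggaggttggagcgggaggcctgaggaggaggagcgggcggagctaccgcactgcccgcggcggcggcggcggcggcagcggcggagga
The windows of Clock, Npas2 and Rora held none of these motifs. The D-box TTATGTAA, in 0.893% of windows, was in no window of the 6 genes. All motifs were searched on both strands, and a match is a description of the letters only.

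In high-dosed animals Nr1d1 and Nr1d2, the REV-ERB repressors, rose, and Bmal1 and Rora, which encode activators, fell. The activators Npas2 and Clock did not pass the test. A call means an adjusted p below 0.05 in limma, a linear model per gene with moderated variances, with Benjamini-Hochberg adjustment over all 10714 genes. By this rule 4 of the 6 members were called (2 higher, 2 lower), where 10.6% of all genes were called (7.91% higher, 2.74% lower). Control and high-dosed values were fully separate in 5 of the 6 (2 higher, 3 lower), where this held for 12.1% of genes (8.69% higher, 3.37% lower). Since the genes were grouped with this contrast known, these counts and p-values describe the fit and are not independent support. Fold changes are on the scale of log2(intensity + 55.26), which understates the change of dim genes.

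**Figure D1:**
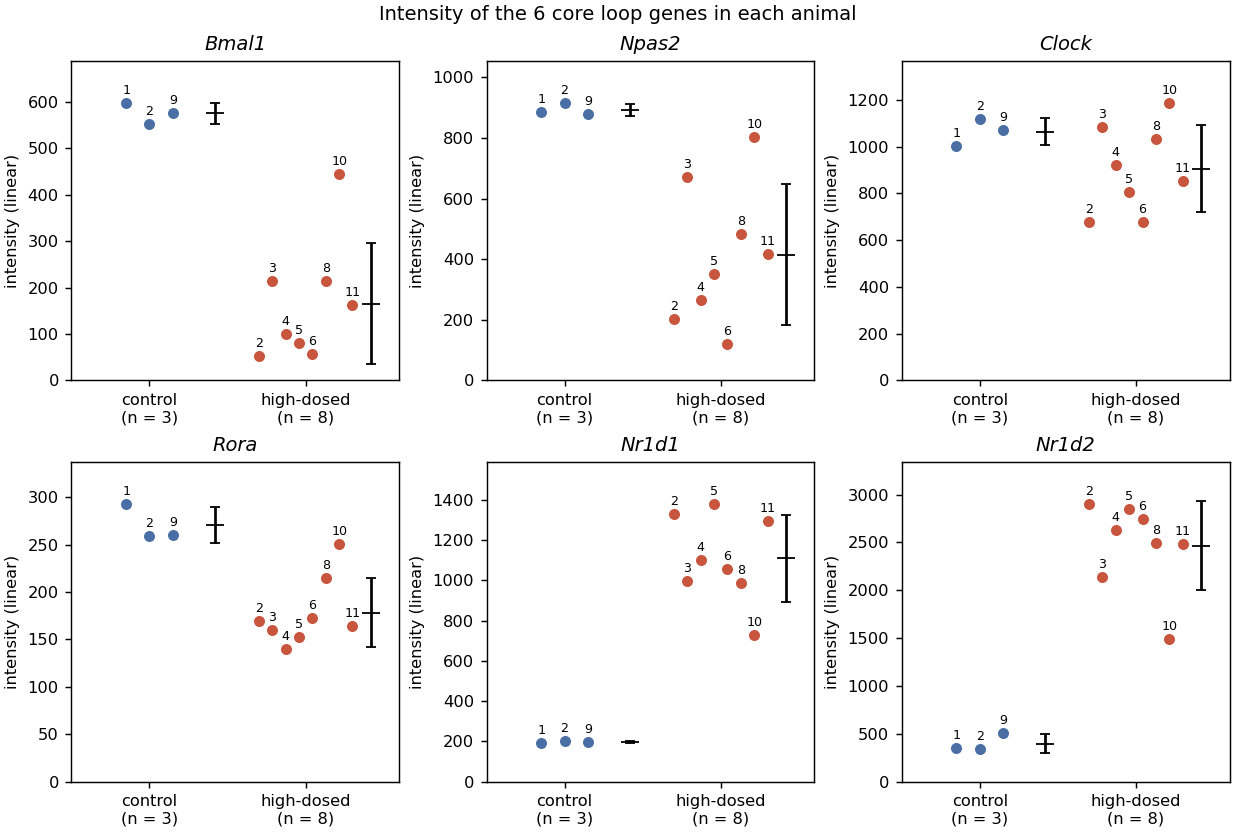
Intensity on a linear scale (y axis) of the representative probe set of each gene in 3 control and 8 high-dosed animals, 1 point per animal with its number; black marks give the mean ± SD. Animal 10 is the highest of the high-dosed animals in Bmal1, Npas2, Clock and Rora and the lowest in Nr1d1 and Nr1d2, and Nr1d1 and Nr1d2 are the 2 panels in which every high-dosed animal lies above all controls.

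Nr1d1 encodes REV-ERB alpha. Its intensity was 194, 200.2 and 194 in controls 1, 2 and 9, and ran from 727 (animal 10) through a median of 1077 to 1381 (animal 5) in high-dosed animals. The lowest high-dosed animal thus lay far above the highest control, and the 3 controls were nearly identical. The rise was 4.56-fold (log2 fold change 2.19 ± 0.15, SE, limma adjusted p = 2.09e-05), and in the ranking of 10714 genes by p Nr1d1 stood at 1. On any 1 array left out, the log2 fold change stayed between 2.14 and 2.27 and remained called.

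Nr1d2 encodes REV-ERB beta, which overlaps in function with REV-ERB alpha. Its intensity was 346, 336 and 507 in controls 1, 2 and 9, and from 1486 (animal 10) through a median of 2563 to 2904 (animal 2) in high-dosed animals. Again the groups did not overlap, and control 9 was the highest of the controls. The rise was 5.56-fold (log2 fold change 2.48 ± 0.18, limma adjusted p = 2.09e-05), and its p stood at rank 2. Of its other probe sets, the second in brightness rose with a log2 fold change of 2.21 ± 0.18 (limma adjusted p = 6.0e-05 over 18625 probe sets). The third lay under the signal filter, with a mean of 55.0 in controls and 112 in high-dosed animals, also without overlap. Within animal numbers 8 and above, where 1 control is left and is assumed to vary like the high-dosed animals, the differences of Nr1d1 and Nr1d2 were 2.05 and 1.94 and neither was called (limma adjusted p = 0.071 and 0.0744).

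Bmal1 encodes the activator with which CLOCK or NPAS2 pairs. Its single probe set read 598, 552 and 576 in controls 1, 2 and 9. In high-dosed animals it ran from 52.5 (animal 2) through a median of 131 to 445 (animal 10). Every high-dosed animal was below every control, but by very different amounts: animals 2 and 6 (57.2) read near the 20th percentile of all values on the arrays, and animal 10 was 0.33 below the control mean on the log2 scale. The mean fall was 3.25-fold (log2 fold change -1.70 ± 0.38, limma adjusted p = 0.0167). Without a pseudocount it was -2.15 (limma adjusted p = 0.0256). The call was lost without control 1 (-1.67, limma adjusted p = 0.0812) and among the animals numbered 8 and above (-1.03, limma adjusted p = 0.194).

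Rora encodes RORA, the activator at the element on which the REV-ERB proteins repress. It read 293, 259 and 259.9 in controls 1, 2 and 9, and from 140.3 (animal 4) through a median of 167 to 251 (animal 10) in high-dosed animals. The groups did not overlap, although animal 10 came within a few units of controls 2 and 9. The fall was 1.41-fold (log2 fold change -0.49 ± 0.12, limma adjusted p = 0.023). The other Rora probe set lay under the filter and its groups overlapped (means of 105.2 and 101), so 1 probe set carried this result. The call was lost without control 1 (-0.45), 2 (-0.52) or 9 (-0.52), with limma adjusted p of 0.129, 0.0548 and 0.0539. Quantile normalization (-0.48, limma adjusted p = 0.0535) and the animals numbered 8 and above alone (-0.26, limma adjusted p = 0.393) gave no call either.

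Npas2, the paralog of Clock, read 885, 916 and 879.6 in controls 1, 2 and 9, and from 121 (animal 6) through a median of 384 to 803 (animal 10) in high-dosed animals. No high-dosed animal reached the lowest control. Its mean difference was large but did not pass (log2 fold change -1.18 ± 0.38, 95% interval -2.01 to -0.35 before adjustment, limma adjusted p = 0.068). Without high-dosed animal 10 it was -1.33 and passed (limma adjusted p = 0.0321), as it did without animals 8, 10 and 11 (-1.50, limma adjusted p = 0.0337) or with a block for low (6 and below, and control 1 and 2) and high animal numbers (-1.21, limma adjusted p = 0.0389).

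Clock itself read 1003, 1118 and 1073 in controls 1, 2 and 9, and from 677 (animal 2) through a median of 888 to 1188 (animal 10) in high-dosed animals. The groups overlapped, with animals 3 (1084), 8 (1033) and 10 inside or above the control range. The difference was -0.24 ± 0.15 on the log2 scale and did not pass (95% interval -0.57 to 0.081, limma adjusted p = 0.342). The second Clock probe set in brightness had a larger difference, -0.49 ± 0.17, with no overlap between the groups (limma adjusted p = 0.1). The third differed by -0.11 ± 0.099 (limma adjusted p = 0.575), and the dimmest, under the filter, by 0.19. The Clock probe sets thus disagreed in size and, for the dimmest, in sign. The second passed within animal numbers 6 and below (-0.60, limma adjusted p = 0.0481), without animals 8, 10 and 11 (-0.67, limma adjusted p = 0.0152) and with the number block (-0.50, limma adjusted p = 0.0172).

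**Figure D2:**
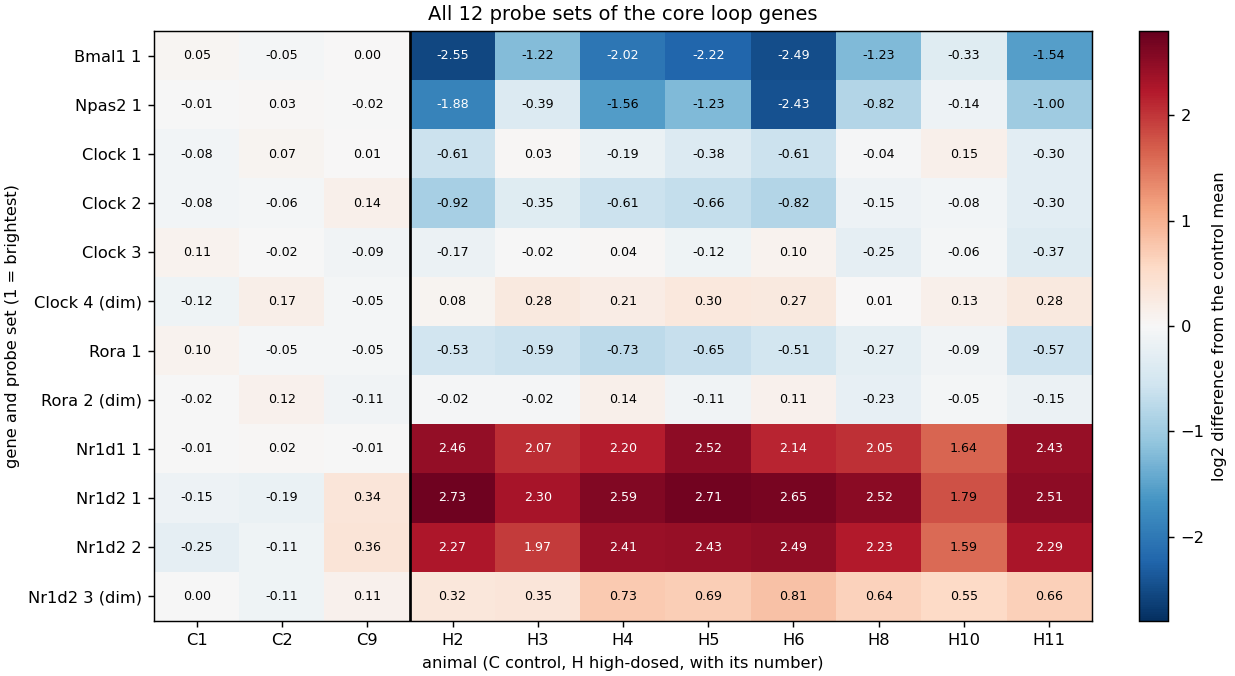
Log2 difference from the control mean (colour and printed value) for all 12 probe sets (rows, numbered by brightness within a gene) in each animal (columns, C control, H high-dosed); dim marks the 3 probe sets under the signal filter. Nr1d1 and the 2 bright Nr1d2 probe sets are between 1.59 and 2.73 in all 8 high-dosed animals, while Bmal1 and Npas2 run from -0.33 to -2.55 and from -0.14 to -2.43.

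Of the 12 probe sets, 9 passed the filter, and 5 of these were called, where 6.92% of all 18625 probe sets were. Of the same 9, 7 had no overlap between the groups, against 9.85% of all probe sets, and so did 1 of the 3 dim ones. Probe sets of 1 gene share animals and are not replicates of each other.

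The high-dosed animals differed among themselves far more than the controls did in most of these genes. For Bmal1 and Npas2 the SD of log2 values was 0.76 in both genes among the 8 high-dosed animals and 0.053 and 0.03 among the 3 controls. Between high-dosed animals these spreads stood at percentiles 99.7 and 99.7 of all genes tested, and the median gene had an SD of 0.135 there and 0.109 in controls. Nr1d1 had an SD of 0.29 against 0.021, Clock 0.28 against 0.075 and Rora 0.21 against 0.085, while that of Nr1d2 was alike in both groups (0.31 and 0.29). An SD over 3 controls is imprecise, and limma fits 1 spread per gene to both groups. By the brightest probe set of each gene, high-dosed animal 10 stood at 1 end of the 8 in every member. It had the highest Bmal1, Npas2, Clock and Rora and the lowest Nr1d1 and Nr1d2. It was the nearest to the control mean in 5 of 6 members; in Clock it lay above that mean (0.15 on the log2 scale), and animals 3 (0.025) and 8 (-0.040) were nearer.

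Whether the loop genes varied together between animals was asked within the 8 high-dosed animals, a question that the difference between the groups did not enter. The genes and tests were still chosen with earlier results of these data known. The pairs share genes and animals, so their p-values are not independent of each other. Of 15 pairs among the 6 genes, 10 correlated past an adjusted p of 0.05 by Pearson's r and 6 by Spearman's rho (exact two-sided permutation tests over all pairings, adjusted over the 15 pairs). No such count was made for pairs of other genes. With each gene read by its brightest probe set, Bmal1, Npas2 and Clock varied together, and Nr1d2 ran against them. The steadiest relations were those of Bmal1 with Clock, Npas2 and Nr1d2 and of Npas2 with Clock: these 4 pairs passed in each of 12 other settings, which were 2 other pseudocounts, 2 normalizations and leaving out each animal in turn.

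Animals with more Bmal1 had more Clock (r = 0.93, exact permutation p = 0.000471, adjusted 0.00353; rho = 0.98, p = 0.000397, adjusted 0.0057). Without the 2 animals farthest from the median Bmal1 level, 10 and 2, r was 0.89. Bmal1 and Npas2 likewise varied together (r = 0.92, exact permutation p = 0.00166, adjusted 0.00707; rho = 0.95, p = 0.00114, adjusted 0.0057), with r = 0.89 without those animals. So did Npas2 and Clock (r = 0.92, exact permutation p = 0.00188, adjusted 0.00707; rho = 0.90, p = 0.00456, adjusted 0.0137), with r = 0.84 without animals 6 and 10. The brightest Clock probe set, which did not differ between the groups past the threshold, thus followed Bmal1 closely among the high-dosed animals. It ran from 677 in animal 2, lowest in Bmal1, to 1188 in animal 10, highest in Bmal1. The second Clock probe set in brightness read 360 and 688 in these 2 animals. The third read 211 and 232 there, and was highest in animal 6 (267), where Bmal1 was low (57.2). No correlation was computed for the other Clock probe sets.

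Animals with more Bmal1 had less Nr1d2 (r = -0.92, exact permutation p = 0.000471, adjusted 0.00353; rho = -0.95, p = 0.00114, adjusted 0.0057), and r was -0.83 without animals 10 and 2. This holds for the brightest Nr1d2 probe set, which was highest in animal 2 (2904), lowest in Bmal1. The second in brightness was lowest in animal 10 (765) and highest in animal 6 (1480), with 1261 in animal 2. The third, under the filter, was lowest in animal 2 (81.7). No correlation was computed for the other Nr1d2 probe sets. Of all 10713 other genes, 0.541% varied with Bmal1 at least as closely as Nr1d2 did, in either sign, 0.532% as closely as Npas2 and 0.336% as closely as Clock. The share was larger for Nr1d1 (4.85%) and Rora (10.8%). Nr1d2 also ran against Clock (r = -0.81, exact permutation p = 0.00241, adjusted 0.00722; rho = -0.90, p = 0.00456, adjusted 0.0137) and Npas2 (r = -0.78, exact permutation p = 0.0142, adjusted 0.0304; rho = -0.86, p = 0.0107, adjusted 0.0268). Without the 2 farthest animals these were -0.77 and -0.88. They passed in 9 and 7 of the 12 other settings, and after median centring neither did (r = -0.72 and -0.66, exact permutation tests, adjusted p = 0.0776 and 0.138).

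The relation of Nr1d1 to the others was looser. Against Bmal1 r was -0.79 (exact permutation p = 0.0177, adjusted 0.0332; rho = -0.76, p = 0.0368, adjusted 0.0613), but -0.38 without animals 10 and 2, so it rested on those animals. The same held for Nr1d1 with Clock (r = -0.74, exact permutation p = 0.0325, adjusted 0.0487; rho = -0.79, p = 0.0279, adjusted 0.0598), which was -0.44 without animals 10 and 2. Nr1d1 and Nr1d2 varied together (r = 0.87, exact permutation p = 0.00687, adjusted 0.0172; rho = 0.76, p = 0.0368, adjusted 0.0613), with r = 0.54 without animals 10 and 5. The pair of Npas2 and Nr1d1 did not pass (r = -0.54, exact permutation p = 0.166, adjusted 0.192; rho = -0.62, p = 0.115, adjusted 0.157).

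Rora was the least tied to the others. With Nr1d1 it passed (r = -0.76, exact permutation p = 0.0304, adjusted 0.0487; rho = -0.64, p = 0.0962, adjusted 0.144), but r was 0.03 without animals 10 and 8. With Bmal1 r was 0.72 and did not pass (exact permutation p = 0.0445, adjusted 0.0607; rho = 0.29, p = 0.501, adjusted 0.537), nor did its 3 other pairs. Without animal 10, 4 of the 15 pairs passed, and without animal 2 likewise 4; after quantile normalization 6 passed and after median centring 5. With the means of animal numbers 6 and below and of 8 and above taken out, r was 0.94 for Bmal1 with Clock, 0.89 with Npas2 and -0.90 with Nr1d2. These sets hold 5 and 3 high-dosed animals, and no correlation was computed within fewer than 6.

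**Figure D3:**
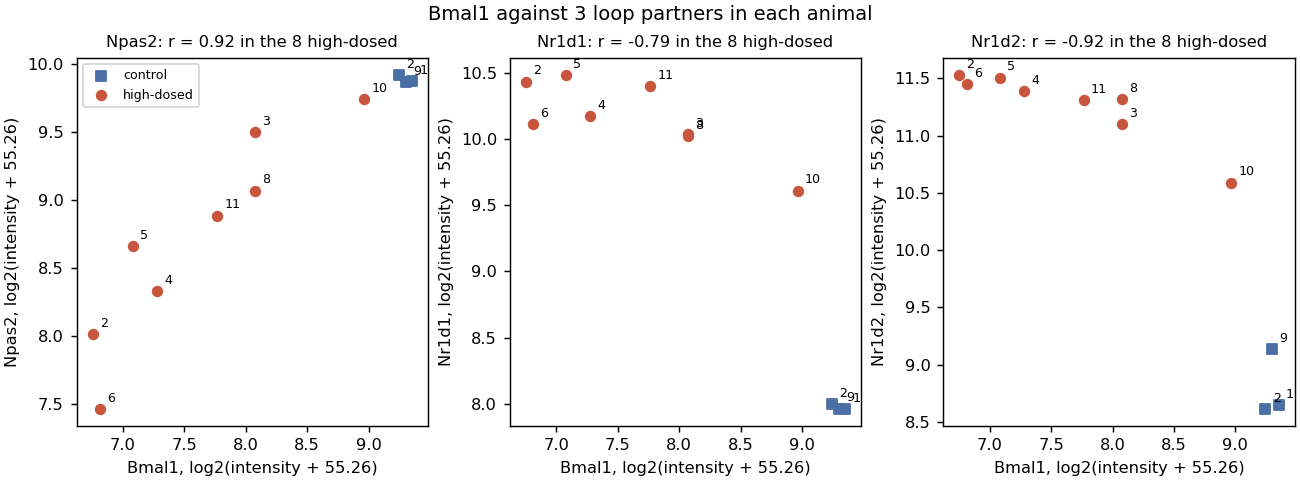
Log2(intensity + 55.26) of Npas2, Nr1d1 and Nr1d2 (y axes) against Bmal1 (x axis), 1 point per animal with its number, squares for controls and circles for high-dosed animals. Among the 8 high-dosed animals r was 0.92 for Npas2, -0.79 for Nr1d1 and -0.92 for Nr1d2, and animal 10 is the one nearest to the controls.

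Other genes that the loop drives were set beside it. Of 13 measured E-box driven clock genes 3 rose, 2 fell and 8 did not pass, with a median log2 fold change of -0.15 against 0.017 over all genes tested. Of all genes 7.91% were called higher and 2.74% lower, and the counts of this and the following lists, which are short, are to be read beside those shares. Dbp, a transcription factor of the PAR bZIP family, read from 120.1 to 137 in controls and from 209 (animal 10) through 1362 to 2730 (animal 6) in high-dosed animals, without overlap (log2 fold change 2.81 ± 0.56, limma adjusted p = 0.00861). The period gene Per3 (1.37 ± 0.30, limma adjusted p = 0.0149) and Tef, a relative of Dbp (0.99 ± 0.29, limma adjusted p = 0.0459), rose too. The clock repressor Cry1 (-2.05 ± 0.18, limma adjusted p = 0.000121) and the period gene Per1 (-0.47 ± 0.14, limma adjusted p = 0.0465) fell. Of the repressors PER and CRY, a subset of these genes, 1 rose, 2 fell and 2 did not pass among 5 measured. The calls of Per1 and Tef were lost without any 1 control, without most single high-dosed animals and with no filter on signal; that of Tef was also lost with quantile normalization, median centring or no variance trend. Within animal numbers 6 and below Per1 was at -0.31 (limma adjusted p = 0.27). The call of Per3 was lost without control 1 (1.43) or 2 (1.33), with limma adjusted p of 0.0593 and 0.052.

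Within the 8 high-dosed animals, Bmal1 was also compared with each of these 13 genes, a set of comparisons added after the data were seen. The r was below 0 for 12 of the 13, and 6 passed by Pearson's r and 7 by Spearman's rho after adjustment over the 13. How many of all genes had r below 0 or passed in this way was not computed. Bmal1 ran against Tef (r = -0.97, exact permutation p = 2.48e-05, the smallest that 8 animals allow, adjusted 0.000322; rho = -1, p = 4.96e-05, adjusted 0.000645): the order of the 8 animals by Tef was exactly the reverse of that by Bmal1. It also ran against Dbp (r = -0.96, exact permutation p = 0.000174, adjusted 0.00113; rho = -0.95, p = 0.00114, adjusted 0.00742), Per3 (r = -0.93, exact permutation p = 0.000769, adjusted 0.00333; rho = -0.90, p = 0.00456, adjusted 0.0148) and Usp2, a ubiquitin protease (r = -0.88, exact permutation p = 0.00499, adjusted 0.013; rho = -0.93, p = 0.00223, adjusted 0.00967).

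Without animals 10 and 2, r was -0.92, -0.93, -0.94 and -0.92 for these 4, which also passed in each of the 12 other settings. Cry2 (r = -0.86) and Per2 (r = -0.80) passed as well (exact permutation p = 0.00446 and 0.0156, adjusted 0.013 and 0.0337; rho = -0.81 for both, p = 0.0218, adjusted 0.0404), with r of -0.74 and -0.71 without those animals. Cry2 passed in 11 of the 12 other settings and Per2 in 5, and without animal 10 neither did (r = -0.75 and -0.70, exact permutation tests, adjusted p = 0.099 and 0.155). Of all other genes, 0.0373% varied with Bmal1 at least as closely, in either sign, as Tef did and 0.056% as closely as Dbp. The share was 0.308% for Per3, 1.24% for Usp2, 1.51% for Cry2 and 3.98% for Per2. Among the genes that did not pass by Pearson's r it ran from 12.1% (Wee1) to 54.7% (Nampt). Usp2, Cry2 and Per2 did not differ between the groups past the threshold (log2 fold changes of -0.87, -0.025 and -0.53, limma adjusted p = 0.22, 0.929 and 0.188), so they covaried with Bmal1 between animals without a called group difference. Cry1, which fell between the groups, did not pass (r = 0.49, exact permutation p = 0.221, adjusted 0.241). Its rho was 0.024 (exact permutation p = 0.977, adjusted 0.977). Its r was 0.11 without animals 10 and 2, and -0.18 without animal 10 alone.

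Of 9 measured REV-ERB and ROR target genes 2 rose, 2 fell and 5 did not pass, with a median log2 fold change of -0.03. Those that fell were Cry1, which stands in both lists, and Nfil3, a repressor that competes with DBP at the D-box (-0.57 ± 0.12, limma adjusted p = 0.0133). Cyp8b1, which directs bile acid synthesis to cholic acid, rose by 1.10 ± 0.13 (limma adjusted p = 0.000727), and Apoa1, the main protein of high-density lipoprotein, by 0.35 ± 0.078 (limma adjusted p = 0.0153). Without control 1 the calls of Nfil3 (-0.58) and Apoa1 (0.35) were lost (limma adjusted p = 0.0594 and 0.0737), and that of Apoa1 also without control 9 (0.24, limma adjusted p = 0.0658) and within animal numbers 6 and below (0.24, limma adjusted p = 0.0795).

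Of 9 measured cofactors of REV-ERB and ROR 2 rose, 0 fell and 7 did not pass, with a median of 0.012. Ppargc1a, a coactivator that also works with ROR receptors, read 112, 128 and 182 in controls 1, 2 and 9 and 265 to 489 in high-dosed animals (0.99 ± 0.14, limma adjusted p = 0.00182). Hdac3, the histone deacetylase recruited by the REV-ERB corepressor complex, rose by 0.24 ± 0.06 (limma adjusted p = 0.0234), and its call was lost without control 1 (0.23) or 2 (0.25) and after quantile normalization (0.19), with limma adjusted p of 0.121, 0.0631 and 0.0596. The corepressor Ncor1 did not pass (-0.082 ± 0.066, limma adjusted p = 0.483).

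**Figure D4:**
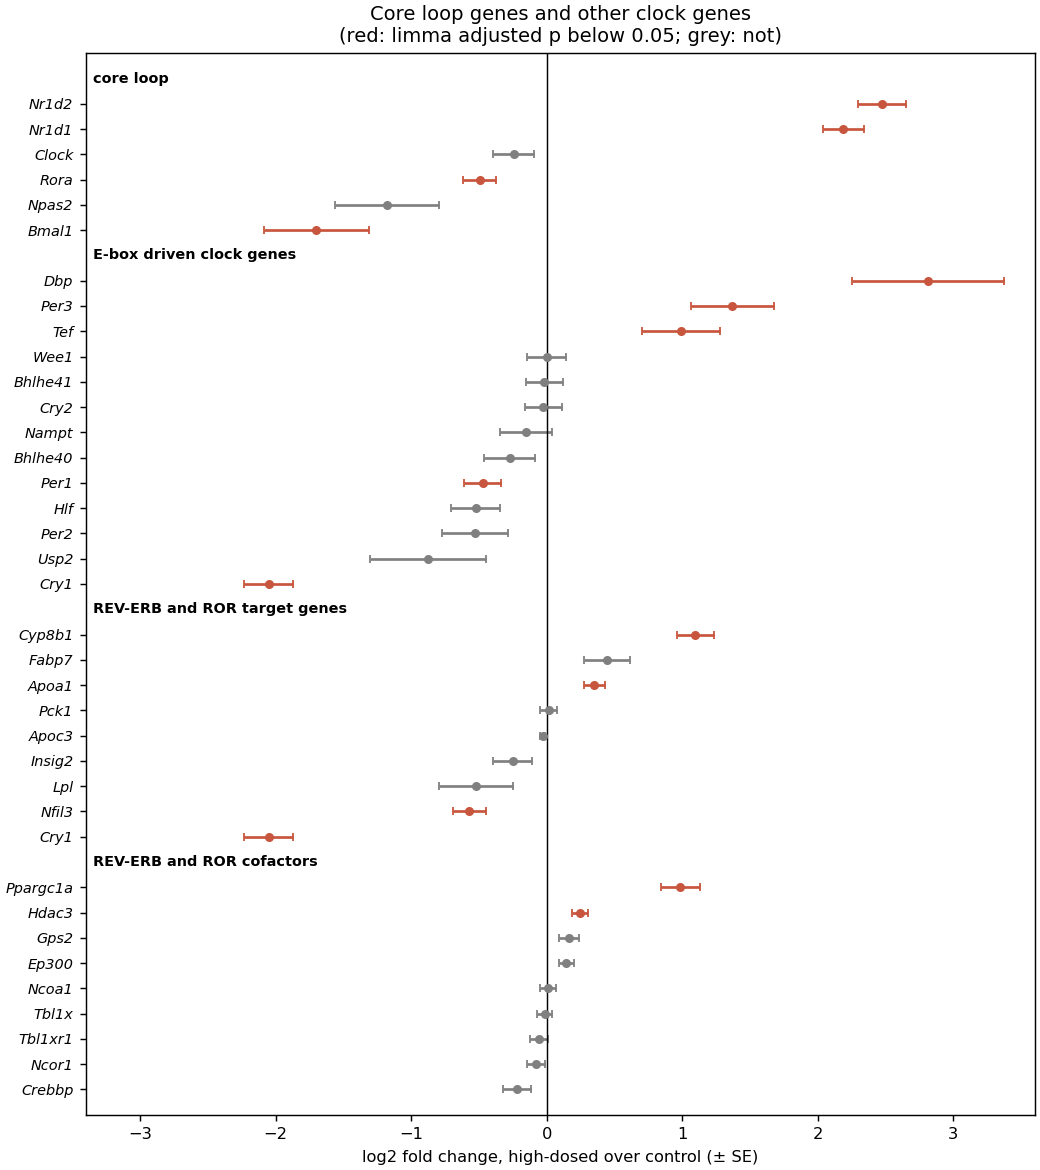
Log2 fold change of high-dosed over control animals (x axis, point, with SE as bars) for the 6 loop genes and the measured genes of 3 lists (rows), red where the limma adjusted p was below 0.05. Nr1d2 (2.48), Nr1d1 (2.19) and Dbp (2.81) lie farthest to the right, and Cry1 (-2.05) and Bmal1 (-1.70) farthest to the left; Cry1 is drawn in 2 lists.

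The arrays were alike in general level: median intensities ran from 149 to 187, and rank correlations between arrays from 0.942 to 0.988. The 7 tested hepatocyte markers summed to intensities of 139755 to 141968 in controls and 138833 to 144857 in high-dosed animals. The sums of 6 macrophage markers were 11376 to 15464 and 14890.2 to 20514, those of 5 endothelial markers 9095 to 10080.3 and 10225 to 11383, and those of 4 stellate markers 1860.5 to 2013 and 1582 to 2108. Of these, 1 macrophage and 3 endothelial markers rose and 1 hepatocyte marker fell; Tf, Marco, Clec4g and Acta2 lay under the filter or had no probe set of 1 symbol. Of 6 T and B cell markers 2 were tested (235 to 286 and 199 to 296), and of 4 cholangiocyte markers only Epcam, which rose (409.7 to 512 and 665 to 1265). The part of these markers in the differences above was not tested, and in whole tissue fewer cells of a type and less RNA per cell cannot be told apart.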

How the data were processed

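Liver RNA was labelled by the standard Affymetrix protocol after Trizol extraction, per the labels' protocols. The values are the deposited intensity of each of 31099 probe sets on a linear scale; MAS5 is named in the submitters' processing notes, with no version, and the scaling target is not given in the sources used here. Values were used as deposited, as log2(intensity + 55.26), the pseudocount being the 20th percentile of all values. Leaving out 57 control probe sets and any with a mean below the 40th percentile (7.40, log2) left 18625. Groups were compared with limma 3.58.1 in R 4.3.3, with variances fitted to signal, and two-sided p-values were adjusted by Benjamini-Hochberg over all genes or probe sets; the fit was tested on simulated data. Correlations used exact permutation tests.

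The members, gene lists and tests were chosen with earlier results of these data known. Named were the 6 members, up to 6 called genes of each list and the 5 genes most like Nr1d1 and Bmal1. Related genes without a call are named where a comparison turns on them, chosen after their values were seen. Precision is limited by the small number of arrays. Alternatives were other pseudocounts, filters and normalizations, no variance trend, each animal left out, and the animal number. Nothing in the labels says how animals were housed or batched. The limma p-values set group differences against the spread between these animals, whatever its sources.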

Additional observations from a re-analysis of the deposited data

Results flagged for a closer look

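Among the 8 high-dosed animals, the brightest Nr1d2 probe set in animal 10 lay apart from the others. On the log2 scale its gap to the next lowest animal was 0.543 of the whole range, past Dixon's limit at 95%. In the second probe set in brightness animal 10 was also lowest (765, next animal 3 at 1010). In the third, under the filter, animals 2 (81.7) and 3 (84.9) lay below animal 10 (106). The ratio was not computed for these other probe sets. Such a limit is passed by chance in about 1 of 20 groups, and 6 genes were looked at. Without animal 10 the log2 fold change of Nr1d2 was 2.57 in place of 2.48, and it was called either way (limma adjusted p = 5.29e-07).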

How the results depend on the processing

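The fold changes of the 6 members kept their direction in every setting run. Leaving out 1 animal at a time gave 325 to 1406 genes called (1141, or 10.6% of all genes tested, with all animals). It gave 2 to 5 of the 6 members and 3 to 6 of the 9 member probe sets. Of the 15 pairs 4 to 9 passed with 1 high-dosed animal left out (10 with all animals). Among the related clock genes, those of all the lists, 4 to 12 were called (12 with all animals). These lists held 13, 9, 9, 5, 15 and 4 measured genes, some in more than 1 list. The lowest counts of genes, members and related genes came without control 1, and without control 2 there were 759 genes. The filter at the 60th percentile left 2 called members and 3 called probe sets, because it removed Bmal1 and Rora. Median centring gave 731 genes and 5 pairs, and quantile normalization 6 pairs. The share of higher calls was 74.2% as deposited, 63.8% after quantile normalization and 64.7% after median centring. Within animal numbers 6 and below 612 genes were called, and without high-dosed animals 8, 10 and 11, tried only once the data had been seen, 716. Within numbers 8 and above, with 1 control, 3 genes, 0 members, 0 member probe sets and 1 related gene were called, and the cause was not tested. The correlation of Bmal1 with Cry1 turned from 0.49 to -0.18 without animal 10, and ran up to 0.66 with 1 animal left out. No paired analysis was possible because nothing in the labels pairs control with high-dosed animals. The number 2 occurs in both groups, on separate arrays. With 3 control arrays the precision of every difference is limited.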

Other observations

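Enzymes that modify clock proteins and paralogs of the loop genes were also measured. Of 15 measured kinases, ubiquitin ligases and other such enzymes 1 rose, Csnk2a2, a catalytic subunit of casein kinase 2 (0.50 ± 0.094, limma adjusted p = 0.00669). None fell, and the remaining 14 did not pass, with a median log2 fold change of 0.023; 7.91% of all genes were called higher, so 1 of 15 is near that share. Its partner subunits Csnk2a1 (0.10) and Csnk2b (0.024) did not pass (limma adjusted p = 0.423 and 0.873). The call of Csnk2a2 was lost without control 1 (0.46, limma adjusted p = 0.0505). Of 4 measured paralogs 1 rose, Hif1a, the oxygen-sensitive factor (0.32 ± 0.081, limma adjusted p = 0.0271), and Arnt, Arnt2 and Epas1 did not pass. The call of Hif1a was lost without control 1 (0.29) or 9 (0.29), with limma adjusted p of 0.141 and 0.0901, within animal numbers 6 and below (0.24, limma adjusted p = 0.209) and without high-dosed animals 8, 10 and 11 (0.27, limma adjusted p = 0.0955).

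Over all 11 arrays, the genes whose log2 values were most like those of Nr1d1 were Jade1 (r = 0.98), Cln3 (0.98), Mcoln1 (0.98), Dclre1a (0.97) and Plin3 (0.97). Those most like Bmal1 were Lgalsl (r = 0.99), Rnf8 (0.98), Litaf (0.97), Agpat2 (0.97) and Kynu (0.96). These values describe 11 arrays in 2 groups that stand apart, were picked as the highest of 10714 genes and have no test. The first 5 differed between the groups by 0.39 to 0.84 on the log2 scale and were called. Of the second 5, Lgalsl had the largest difference (-1.02), and Agpat2 (-0.23) was not called (limma adjusted p = 0.0667).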
